A study of Mus musculus with 16 samples.

Results

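Complement and coagulation proteins are 2 sets of plasma proteins, made for the most part in the liver, and 38 of their genes were followed here in mouse liver. They were listed by name for their roles in these systems, with no measured value in the rule. Of the 38, 34 were matched to a probe through its transcript identifier, out of 47102 genes on the arrays, and all 34 were tested among 31484 genes. In both totals each probe without a symbol counts as a gene of its own, and 17666 of the 31484 had a symbol. Klkb1, C2, C8b and Cfi were matched to no probe and were not analysed here. The probes of all 34 were well above background on 16 of 16 arrays, so no gene entered because it was high in 1 group alone.

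Each of 16 male mice aged 6 weeks gave liver RNA for a single 1-colour array, with 4 mice per genotype. The genotypes concern CerS2, the ceramide synthase that builds ceramides with very long acyl chains. They are named CerS2 H/A, CerS2 Del (whose condition is also written delHox), CerS2 Flox (also written delneo) and CerS2 WT. The labels do not spell out what the H/A, Del and Flox alleles contain, and Cers2 was not matched to a probe, so the genotypes were not checked against it. All mice shared a mixed background of 75% C57BL/6 and 25% SV129, and no treatment or transgene is given for any group. Nothing in the labels says how litters or cages were shared, so p-values measure the spread between these mice.

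Coagulation is a chain of proteases that ends in thrombin, which cuts fibrinogen into fibrin, while plasmin dissolves the clot and the protein C pathway slows the chain. Complement is started by C1 on antibodies, by lectins on sugars, or by the alternative pathway. All 3 routes split C3 and then C5, and the terminal proteins up to C9 assemble a pore in the target membrane. Hepatocytes make most of these proteins, whereas C1q and properdin are known as products of macrophages and other myeloid cells.

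The arrays were those of liver by their hepatocyte genes. The summed signal of 9 tested hepatocyte markers, Alb, Apoa1 and Ttr among them, ranged over 407500 to 443900 in H/A livers, 405700 to 432400 in Del livers, 382300 to 436000 in Flox livers and 391800 to 414900 in WT livers. Before scaling, the 75th percentile of the signal was 109.6 to 173.6 on the H/A arrays, 91.1 to 115.1 on the Del arrays, 86.3 to 111.6 on the Flox arrays and 89.8 to 99.1 on the WT arrays. For 6 of 16 samples the listed scanner file came from a slide other than the one in the label, but all 16 columns of the value table matched best the file at the labelled slide and position, and those columns are used here. With the files taken as listed, 0 members were called in any of the 5 comparisons with limma, where at most 0.0159% of all genes were called. Individual arrays also stood apart. WT replicate 2 was the highest of the 16 arrays for 9 members, Flox replicate 1 was the lowest for 11, and H/A replicate 3 was the lowest for 6. Precision is limited by the number of arrays, 4 per genotype. Genotypes were split unevenly over the slides. The first slide held 3 H/A, 1 Del, 2 Flox and 2 WT arrays, and the second 1 H/A, 3 Del, 2 Flox and 2 WT arrays. Differences within slides therefore rest on 1 Del array on the first slide and on 1 H/A array on the second.

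Values are log2 normalised intensities, differences are on the log2 scale with the first-named genotype minus the second, and brackets hold 95% intervals of single genes. A gene was called at a limma adjusted p under 0.05 over all 31484 genes, and levels of different genes are not compared, because each is read by its own probe. In H/A against WT 8 of 34 members were called, 4 higher and 4 lower, where 10.1% of all genes were called, 7.08% higher and 2.97% lower. Del against WT called 10 members, 5 in each direction, against 13.2% of all genes (8.85% higher and 4.38% lower). In Del against Flox 10 were called (29.4%), again 5 in each direction, a share near the 34.8% of all genes (16.6% higher and 18.2% lower). Without scaling between arrays, H/A against WT called 12 members, 12 higher and 0 lower, and 98.7% of its calls over all genes were higher. That setting also moved the share of higher calls over all genes to 80.5% in Del against WT and to 78.0% in Del against Flox. The median difference over the 34 members was -0.12 in H/A against WT, -0.05 in Del against WT and -0.02 in Del against Flox, where over all genes tested it was -0.09, -0.11 and -0.14. The H/A and Del comparisons share the WT arrays, and the Del comparisons share the Del arrays.

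Neither of the remaining comparisons called a member. Flox against WT called 0 of 34 with limma, against 0.0222% of all genes (0.00318% higher and 0.0191% lower), and 1 member, F7, had an unadjusted p under 0.05. H/A against Del called 0 of 34, against 0.0127% of all genes (0.00953% higher and 0.00318% lower), and F7 and Kng1 had an unadjusted p under 0.05. No alternative processing called a member in either comparison. Differences between H/A and Del livers lay between -0.45 for C9 and 0.36 for F7, and the intervals of all members together reached from -1.81 to 0.96.

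**Figure D1:**
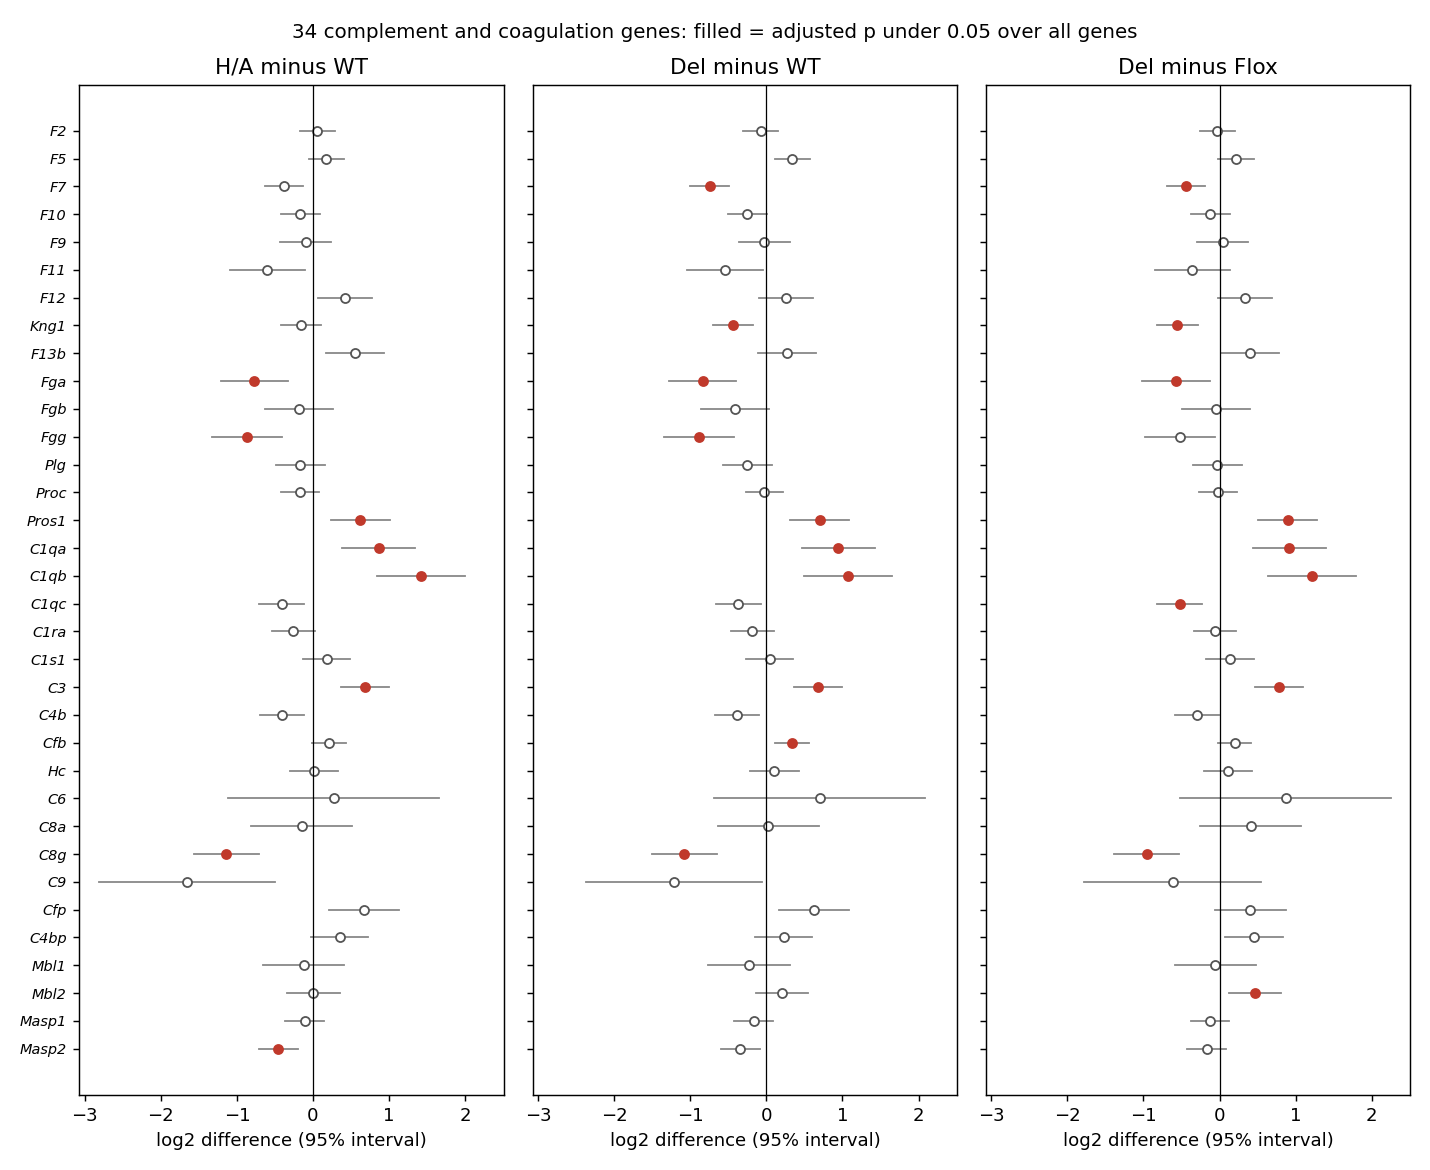
Differences of the 34 members on the log2 scale (points) with 95% intervals (lines) in 3 comparisons, H/A minus WT, Del minus WT and Del minus Flox, with genes ordered by role and 4 livers per genotype. Filled points passed an adjusted p under 0.05 over all genes, and they number 8, 10 and 10 from left to right, on both sides of 0.

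Fibrinogen, the precursor of the clot, is built from 3 chains whose genes Fga, Fgb and Fgg lie side by side on chromosome 3. Fga and Fgg were lower in both H/A and Del livers than in WT livers, and Fgb was not called. Their start regions are shown because the 3 neighbouring genes did not give the same calls. Whether their differences differ from each other was not tested. Each line holds the 250 bases before the RefSeq start on GRCm38.p6, 5′ to 3′ on the gene's strand, at chr3:83025903-83026152 for Fga (plus strand), chr3:83049864-83050113 for Fgb (minus strand) and chr3:83007474-83007723 for Fgg (plus strand). Capitals mark matches, on either strand, to CTGGGA (the core of the interleukin-6 response element of acute phase genes), TTGCNNAA (a C/EBP-like motif) or GTTAAT (a half-site of HNF1).
Fga: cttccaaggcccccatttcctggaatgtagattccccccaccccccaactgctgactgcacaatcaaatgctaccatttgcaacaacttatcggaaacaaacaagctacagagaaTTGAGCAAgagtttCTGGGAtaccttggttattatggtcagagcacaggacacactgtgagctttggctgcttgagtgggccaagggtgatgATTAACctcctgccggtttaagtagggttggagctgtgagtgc
Fgb: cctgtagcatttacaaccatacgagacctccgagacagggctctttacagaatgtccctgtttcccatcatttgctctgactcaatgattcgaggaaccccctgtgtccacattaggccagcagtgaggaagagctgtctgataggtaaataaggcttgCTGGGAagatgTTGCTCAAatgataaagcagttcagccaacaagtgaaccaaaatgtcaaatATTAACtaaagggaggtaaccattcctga
Fgg: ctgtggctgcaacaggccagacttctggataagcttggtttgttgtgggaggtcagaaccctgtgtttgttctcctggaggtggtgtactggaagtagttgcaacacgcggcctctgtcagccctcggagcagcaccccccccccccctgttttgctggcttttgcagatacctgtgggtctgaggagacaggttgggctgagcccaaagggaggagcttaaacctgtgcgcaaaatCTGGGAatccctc

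The Fga window held CTGGGA from -121 to -116, TTGCNNAA from -135 to -128 and GTTAAT from -43 to -38, the last pair on the minus strand, with -1 as the base before the start. Fgb held all 3 as well, with CTGGGA from -91 to -86, TTGCNNAA from -80 to -73 and GTTAAT from -29 to -24 on the minus strand. Fgg held CTGGGA alone, from -13 to -8. No matches overlapped. Over 32851 promoter windows of the same length, 27.0% held CTGGGA, 9.56% TTGCNNAA and 6.43% GTTAAT, and of 27 member genes with a window these numbered 12, 7 and 8. A match is a run of letters and does not show that a factor binds there.

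Fga, the alpha chain, read 11.96, 11.73, 11.48 and 12.07 in H/A livers, 11.75, 11.95, 11.52 and 11.76 in Del livers, 12.23, 12.61, 12.30 and 12.13 in Flox livers, and 12.34, 13.29, 12.25 and 12.45 in WT livers. All H/A and Del arrays lay below all Flox and WT arrays, and WT replicate 2 was the highest. Fga fell by 0.77 in H/A against WT [-1.21 to -0.33] (limma adjusted p = 0.0302), by 0.84 in Del against WT [-1.28 to -0.40] (0.0154) and by 0.57 in Del against Flox [-1.02 to -0.13] (0.0442). Within the first and the second slide it differed by -1.09 and -0.27 in H/A against WT, -1.07 and -0.60 in Del against WT, and -0.67 and -0.47 in Del against Flox. The H/A call was not reached without any one of H/A replicates 2 and 3 and WT replicate 4 (-0.82 to -0.66), and the Del against WT call without Del replicate 3 (-0.76). Neither call was reached without scaling between arrays or with the 2 groups alone, nor was the H/A call with scanner signals scaled by their 75th percentile. Without WT replicate 2 both calls held, with smaller differences of -0.54 in H/A and -0.60 in Del. The Del against Flox call was not reached without H/A replicate 2, WT replicate 4, Del replicates 1, 3 or 4, or any one Flox replicate (-0.63 to -0.48), nor with slide as a block (-0.54, adjusted p = 0.0542). It was also lost with scanner signals scaled by their 75th percentile, without scaling and without the filter on background.

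Fgg, the gamma chain, read 12.09, 12.01, 11.61 and 12.47 in H/A livers, 11.83, 12.23, 11.95 and 12.13 in Del livers, 12.32, 12.61, 12.64 and 12.65 in Flox livers, and 12.55, 13.60, 12.66 and 12.86 in WT livers. H/A and Del arrays lay below all WT arrays. Fgg fell by 0.87 in H/A [-1.33 to -0.41] (limma adjusted p = 0.0205) and by 0.88 in Del [-1.34 to -0.43] (0.014), and within slides these differences were -1.17 and -0.29 in H/A, and -1.24 and -0.66 in Del. Without H/A replicates 2 or 3 the H/A call was not reached (-0.86 and -0.73). It was also lost with scanner signals scaled by their 75th percentile, without scaling and with the 2 groups alone, and the Del call was lost without scaling. Without WT replicate 2 both calls held, with smaller differences of -0.64 in H/A and -0.66 in Del. In Del against Flox the groups did not overlap either, but the difference of -0.52 was not called (adjusted p = 0.0694). It was called without WT replicate 2 (-0.52, 0.0258), and also with the Del and Flox arrays fitted alone (-0.52, 0.0318), with normexp (-0.58, 0.0351) and with trend and robust fitting (-0.52, 0.0486).

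Fgb, the beta chain, read 13.82, 14.04, 13.93 and 14.37 in H/A livers, 13.60, 13.92, 13.92 and 13.81 in Del livers, 13.85, 13.97, 13.78 and 13.84 in Flox livers, and 13.96, 15.03, 13.86 and 14.04 in WT livers. Only WT replicate 2 stood clear of the other arrays. The difference was -0.18 in H/A against WT (limma adjusted p = 0.552), -0.41 in Del against WT (0.183) and -0.05 in Del against Flox (0.872). Of the other clot genes, Plg (plasminogen, the precursor of plasmin) differed by -0.17 and -0.25 from WT in H/A and Del. F13b, the carrier subunit of the fibrin-crosslinking factor, stood 0.55 above WT in H/A livers without being called (adjusted p = 0.062), and its 2 probes gave 0.05 and 0.55. It was called in H/A with slide as a block (0.61, 0.0323), and without WT replicate 2 (0.61, 0.0371) or Del replicate 1 (0.55, 0.0498), and in Del against Flox without Del replicate 1 (0.53, 0.0362). Normexp (0.51, 0.0289) and trend and robust fitting (0.55, 0.0418) also called the H/A difference.

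**Figure D2:**
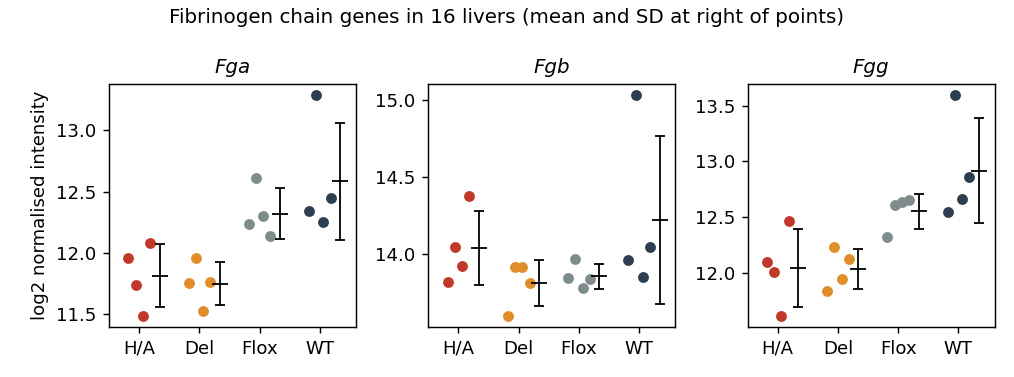
Log2 normalised intensity of the 3 fibrinogen chain genes in each of 4 livers of H/A, Del, Flox and WT mice (points), with mean and SD at the right of each group. H/A and Del points of Fga and Fgg lie below the WT points, and 1 WT liver is highest for all 3 genes.

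F7 (factor VII, the protease that starts coagulation with tissue factor) was the lowest in Del livers. It read 10.50, 10.58, 10.48 and 10.30 in H/A livers, 10.02, 10.12, 10.05 and 10.22 in Del livers, 10.45, 10.31, 10.81 and 10.59 in Flox livers, and 10.93, 10.88, 10.86 and 10.71 in WT livers. The Del arrays lay below those of each other genotype, and the H/A arrays below the WT arrays. F7 fell by 0.74 in Del against WT [-1.0 to -0.49] (limma adjusted p = 0.000936; -0.88 and -0.66 within slides) and by 0.44 in Del against Flox [-0.70 to -0.19] (0.0144; -0.36 and -0.58). Both calls were lost without scaling between arrays, and the Del against Flox call also with scanner signals scaled by their 75th percentile. H/A differed from WT by -0.38 (0.0546), which was called without WT replicate 2 (-0.37, 0.0496), Del replicate 3 (0.0468) or Flox replicates 2 (0.0498) or 3 (0.0461). With normexp (-0.35, 0.0227) and with trend and robust fitting (-0.38, 0.0406) this difference was called as well. H/A lay 0.36 above Del [0.11 to 0.62], which did not pass over all genes (unadjusted p = 0.00828, adjusted p = 0.52).

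Factors further along gave no calls. F2 (prothrombin), F5 (the cofactor of factor X) and F10 (factor X) differed from WT by 0.06, 0.18 and -0.17 in H/A, and by -0.07, 0.34 and -0.25 in Del. F5 came nearest, at a limma adjusted p of 0.051 in Del against WT, and was called without Del replicate 1 against WT (0.43, 0.0192) and Flox (0.30, 0.0406). Its Del difference from WT was also called with normexp (0.30, 0.0276) and with trend and robust fitting (0.34, 0.0358). Among the intrinsic factors F9 differed by -0.09 in H/A and -0.02 in Del against WT. F11 showed -0.60 in H/A (adjusted p = 0.0978) and -0.54 in Del (0.121), with neither group overlapping WT. Its Del difference was called without H/A replicate 3 (0.0496), and its H/A difference with the mean of its probes (-0.68, 0.0418). F12, the contact factor, differed by 0.42 in H/A (0.105), 0.26 in Del and 0.33 in Del against Flox, the last called without Del replicate 1 (0.47, 0.0347). The H/A difference of F12 was called with normexp (0.41, 0.0407) and without scaling between arrays (0.99, 0.00938).

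Kng1 encodes kininogen, the contact cofactor that also yields bradykinin. It read 13.15, 12.96, 12.98 and 12.77 in H/A livers, 12.56, 12.88, 12.64 and 12.67 in Del livers, 13.56, 13.14, 13.12 and 13.15 in Flox livers, and 13.10, 13.15, 13.16 and 13.10 in WT livers. The Del arrays lay below all Flox and WT arrays. Kng1 fell by 0.44 in Del against WT [-0.71 to -0.18] (limma adjusted p = 0.0304; -0.57 and -0.40 within slides) and by 0.55 in Del against Flox [-0.82 to -0.29] (0.00573; -0.79 and -0.41), and its 5 probes ranged over -0.55 to -0.32 and -0.55 to -0.24. The first of these calls was not reached without WT replicates 1, 3 or 4 or Del replicates 1, 3 or 4 (-0.45 to -0.40), nor with the 2 groups alone. Without scaling between arrays neither call was reached.

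Pros1 encodes protein S, the cofactor of activated protein C, and was higher in H/A and Del livers. It read 9.80, 10.09, 10.29 and 10.41 in H/A livers, 10.28, 9.95, 10.50 and 10.17 in Del livers, 9.14, 9.36, 9.29 and 9.53 in Flox livers, and 9.33, 10.04, 9.38 and 9.34 in WT livers. WT replicate 2 overlapped the H/A and Del arrays, and no Flox array did. Pros1 rose by 0.62 in H/A against WT [0.24 to 1.01] (limma adjusted p = 0.0418; 0.38 and 1.04 within slides), by 0.70 in Del against WT [0.31 to 1.09] (0.0196; 0.59 and 0.84) and by 0.89 in Del against Flox [0.51 to 1.28] (0.00327; 1.03 and 0.80). The H/A call was not reached with slide as a block (0.63, 0.0547), or without H/A replicates 2, 3 or 4, WT replicates 1, 3 or 4, Del replicates 1 or 4, or Flox replicates 2 or 3 (0.54 to 0.64). The Del against WT call was not reached without WT replicates 1, 3 or 4 or Del replicate 3 (0.61 to 0.65). Both calls against WT were lost with the 2 groups alone, that of H/A also without the filter on background, and that of Del without scaling. Proc, protein C itself, differed from WT by -0.17 in H/A and -0.02 in Del.

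C1q, the antibody-binding part of C1, has 3 chains, and 2 of their genes rose while the third did not. C1qa read 11.82, 11.94, 12.76 and 12.19 in H/A livers, 12.29, 12.28, 12.35 and 12.13 in Del livers, 11.73, 11.44, 11.15 and 11.06 in Flox livers, and 10.85, 11.83, 11.18 and 11.38 in WT livers. One H/A array lay just under WT replicate 2, and the Del arrays overlapped neither Flox nor WT. C1qa rose by 0.86 in H/A [0.38 to 1.34] (limma adjusted p = 0.026; 0.83 and 0.91 within slides), by 0.95 in Del [0.47 to 1.42] (0.0121; 0.94 and 0.97), and by 0.92 in Del against Flox [0.44 to 1.39] (0.0091; 0.70 and 1.15). The H/A call was not reached without H/A replicate 3, H/A replicate 4, or 1 of WT replicates 1, 3 and 4 (0.67 to 0.88). With the 2 groups alone it was lost as well.

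C1qb read 10.19, 10.73, 11.41 and 10.70 in H/A livers, 10.34, 10.34, 10.67 and 10.31 in Del livers, 9.76, 9.07, 8.96 and 8.99 in Flox livers, and 8.89, 10.07, 9.18 and 9.21 in WT livers. All H/A and Del arrays lay above all Flox and WT arrays. C1qb rose by 1.42 in H/A [0.84 to 2.00] (2.67-fold, limma adjusted p = 0.00505; 1.29 and 1.5 within slides), by 1.07 in Del [0.50 to 1.65] (0.0172; 0.85 and 1.24), and by 1.22 in Del against Flox [0.64 to 1.80] (0.00556; 0.92 and 1.46). The Del against WT call was not reached without WT replicates 1 or 3 or Del replicate 3 (0.93 to 1.02).

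C1qc ran the other way. It read 7.79, 7.80, 8.04 and 7.77 in H/A livers, 8.0, 8.03, 7.81 and 7.72 in Del livers, 8.41, 8.67, 8.18 and 8.39 in Flox livers, and 8.33, 8.54, 8.02 and 8.15 in WT livers. The Del arrays lay below the Flox arrays, while 1 H/A array and 1 Del array reached the lowest WT array. C1qc fell by 0.52 in Del against Flox [-0.82 to -0.23] (limma adjusted p = 0.0134; -0.54 and -0.43 within slides), and differed from WT by -0.41 in H/A (0.0678) and -0.37 in Del (0.0864). With slide as a block the H/A difference was called (-0.47, 0.0281). Without scaling between arrays the Del against Flox call was lost. Each C1q chain is read by 1 probe. C1ra and C1s1, the proteases of C1, differed from WT by -0.26 and 0.18 in H/A and by -0.18 and 0.04 in Del, and were not called.

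Macrophage genes moved in the same livers as C1qa and C1qb. Of 12 tested Kupffer cell and macrophage markers, 9 rose in H/A against WT and 0 fell, 7 rose and 1 fell in Del against WT, and 6 rose and 2 fell in Del against Flox. These calls were 75%, 66.7% and 66.7% of the markers, where 10.1%, 13.2% and 34.8% of all genes were called. The summed signal of the 12 markers was 4842 to 9803 in H/A livers, 3947 to 4762 in Del livers, 2361 to 3279 in Flox livers and 1942 to 3526 in WT livers. H/A replicate 3, the highest array for C1qa and C1qb, had the highest sum. Adgre1 (F4/80) rose by 1.70 in H/A and 1.22 in Del against WT, Marco by 2.68 and 2.50, whereas Cd163 fell by 2.01 in Del, and no marker was at 0. More macrophages and more RNA per macrophage cannot be told apart in bulk liver RNA, and their part in the C1q values was not tested. Neutrophil markers summed to 519 to 972.2 in H/A livers, 444.6 to 540.1 in Del livers, 333.2 to 453.2 in Flox livers and 293.1 to 415.4 in WT livers.

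Cfp encodes properdin, the myeloid protein that steadies the alternative convertase. It read 10.34, 10.45, 10.86 and 10.91 in H/A livers, 10.08, 10.74, 10.68 and 10.87 in Del livers, 10.27, 10.30, 10.08 and 10.11 in Flox livers, and 9.33, 10.38, 10.06 and 10.10 in WT livers. The groups overlapped, and WT replicate 1 was the lowest array. Differences of 0.67 in H/A [0.21 to 1.13] (limma adjusted p = 0.0611) and 0.63 in Del against WT [0.16 to 1.09] (0.0677) were not called. The H/A difference was called without H/A replicate 1 (0.77, 0.0457), WT replicate 2 (0.81, 0.0231) or Del replicate 1 (0.67, 0.0459), and also with slide as a block (0.73, 0.0484), and the Del difference without WT replicate 2 (0.77, 0.0285) or Del replicate 1 (0.80, 0.0279). Normexp called the H/A difference (0.69, 0.031), and trend and robust fitting called those of H/A (0.67, 0.0392) and Del (0.63, 0.0451).

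**Figure D3:**
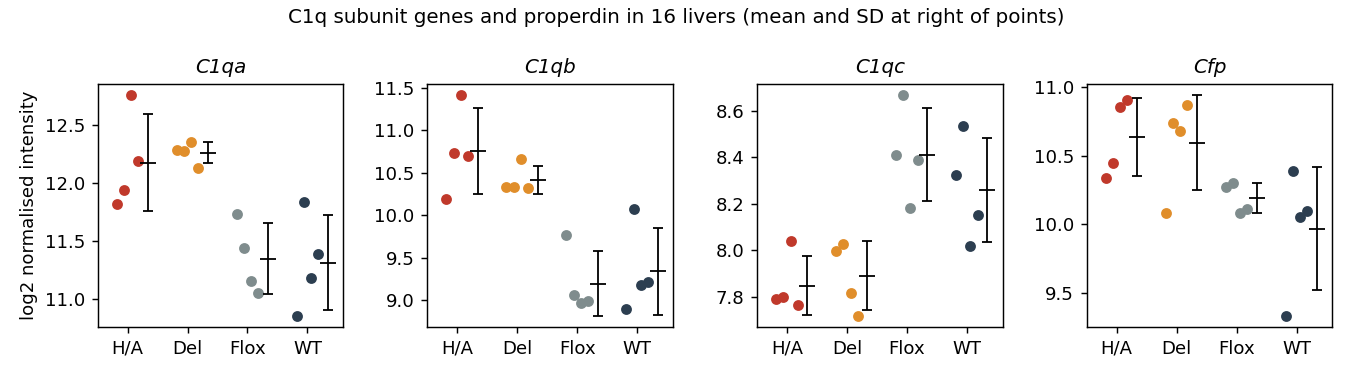
Log2 normalised intensity of the C1q chain genes and of Cfp in each of 4 livers of H/A, Del, Flox and WT mice (points), with mean and SD at the right of each group. H/A and Del points of C1qb lie above all Flox and WT points, whereas those of C1qc lie low.

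C3, on which all complement routes converge, was higher in both H/A and Del livers. It read 14.79, 15.15, 15.15 and 14.96 in H/A livers, 15.06, 14.90, 15.09 and 15.00 in Del livers, 14.63, 14.09, 14.04 and 14.17 in Flox livers, and 14.15, 14.60, 14.36 and 14.21 in WT livers. All H/A and Del arrays lay above all Flox and WT arrays. C3 rose by 0.68 in H/A against WT [0.37 to 0.99] (1.60-fold, limma adjusted p = 0.0098; 0.65 and 0.68 within slides), by 0.68 in Del against WT [0.37 to 0.99] (0.00681; 0.69 and 0.71) and by 0.78 in Del against Flox [0.47 to 1.09] (0.00208; 0.70 and 0.89). Leaving out single arrays ended none of the 3 calls. With scanner signals scaled by their 75th percentile, neither difference from WT was called (0.53 in H/A, 0.0515, and 0.51 in Del, 0.0542), nor was that of Del without scaling (0.58, 0.0841). Its start region is shown beside those of fibrinogen because C3 moved the other way. It lies at chr17:57228137-57228386 (GRCm38.p6, minus strand), and its only match was to TTGCNNAA, from -45 to -38, in capitals.
C3: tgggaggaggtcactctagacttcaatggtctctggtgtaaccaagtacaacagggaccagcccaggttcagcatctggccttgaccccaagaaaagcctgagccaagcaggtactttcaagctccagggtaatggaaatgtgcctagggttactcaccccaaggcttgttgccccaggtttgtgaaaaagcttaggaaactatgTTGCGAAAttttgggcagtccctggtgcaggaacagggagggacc

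Cfb encodes factor B, the protease of the alternative convertase. It read 14.16, 14.18, 14.00 and 13.96 in H/A livers, 14.12, 14.22, 14.16 and 14.30 in Del livers, 14.11, 14.11, 13.86 and 13.93 in Flox livers, and 13.91, 13.90, 13.84 and 13.81 in WT livers. H/A and Del arrays lay above the WT arrays. Cfb rose by 0.34 in Del against WT [0.12 to 0.56] (limma adjusted p = 0.0415; 0.22 and 0.40 within slides), but its 3 probes ranged over -0.04 to 0.34 and the mean of the probes was not called. The call was also not reached without H/A replicate 2, WT replicates 1, 3 or 4, Del replicates 2, 3 or 4, or Flox replicate 4 (0.30 to 0.35). Scanner signals scaled by their 75th percentile, no scaling and the 2 groups alone ended the call too. Cfb was not called in H/A against WT (0.21, limma adjusted p = 0.164) or in Del against Flox (0.20, 0.133). C4b (C4, cut by C1 and the lectin proteases) differed by -0.40 in H/A (0.066) and -0.38 in Del (0.0733) against WT, without overlap, and by -0.29 in Del against Flox. Without Flox replicate 1 these were called, the last at -0.41 (0.0419, 0.0444 and 0.0337). Normexp called C4b in H/A against WT (-0.37, 0.0418) and in Del against Flox (-0.33, 0.0382), and trend and robust fitting in H/A (-0.40, 0.0446).

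Masp2, the lectin pathway protease that cuts C4 and C2, read 10.80, 10.86, 10.61 and 10.87 in H/A livers, 10.80, 10.94, 10.76 and 11.11 in Del livers, 10.80, 11.17, 11.12 and 11.20 in Flox livers, and 11.28, 11.31, 11.19 and 11.20 in WT livers. H/A and Del arrays lay below the WT arrays. Masp2 fell by 0.46 in H/A [-0.71 to -0.20] (limma adjusted p = 0.0272; -0.53 and -0.32 within slides), and without scaling between arrays the difference turned to 0.12. The call was not reached without H/A replicate 2, H/A replicate 3, or 1 of WT replicates 1, 3 and 4 (-0.48 to -0.40). Scanner signals scaled by their 75th percentile and the 2 groups alone ended the call too. In Del against WT Masp2 differed by -0.34 (0.0707), which was called without Del replicate 4 (-0.41, 0.0482).

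Mbl2, a mannose-binding lectin, read 13.07, 13.57, 13.13 and 13.52 in H/A livers, 13.43, 13.26, 13.64 and 13.78 in Del livers, 13.39, 13.01, 12.88 and 12.96 in Flox livers, and 13.31, 13.56, 13.26 and 13.14 in WT livers. The Del and Flox arrays overlapped through Flox replicate 1. Mbl2 rose by 0.46 in Del against Flox [0.12 to 0.81] (limma adjusted p = 0.0392; 0.23 and 0.64 within slides), where its 2 probes gave -0.06 and 0.46 and the mean of the probes was not called. The call was not reached without Del replicates 3 or 4 or Flox replicates 2, 3 or 4 (0.38 to 0.45). With scanner signals scaled by their 75th percentile, no scaling, no filter on background or the 2 groups alone it was also lost. Mbl2 differences from WT were 0.003 in H/A (limma adjusted p = 0.991), 0.21 in Del (0.37) and -0.26 in Flox (0.802), and none was called. Mbl1 and Masp1 differed from WT by -0.12 and -0.11 in H/A and by -0.23 and -0.17 in Del, and C4bp, the binding protein that restrains the C4 convertase, by 0.35 and 0.23. C4bp differed by 0.45 in Del against Flox (0.057), called without Del replicate 1 (0.56, 0.0341) or Flox replicate 4 (0.58, 0.032). Normexp (0.37, 0.0393), trend and robust fitting (0.45, 0.039) and scanner signals scaled by their 75th percentile (0.59, 0.0469) called it too.

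**Figure D4:**
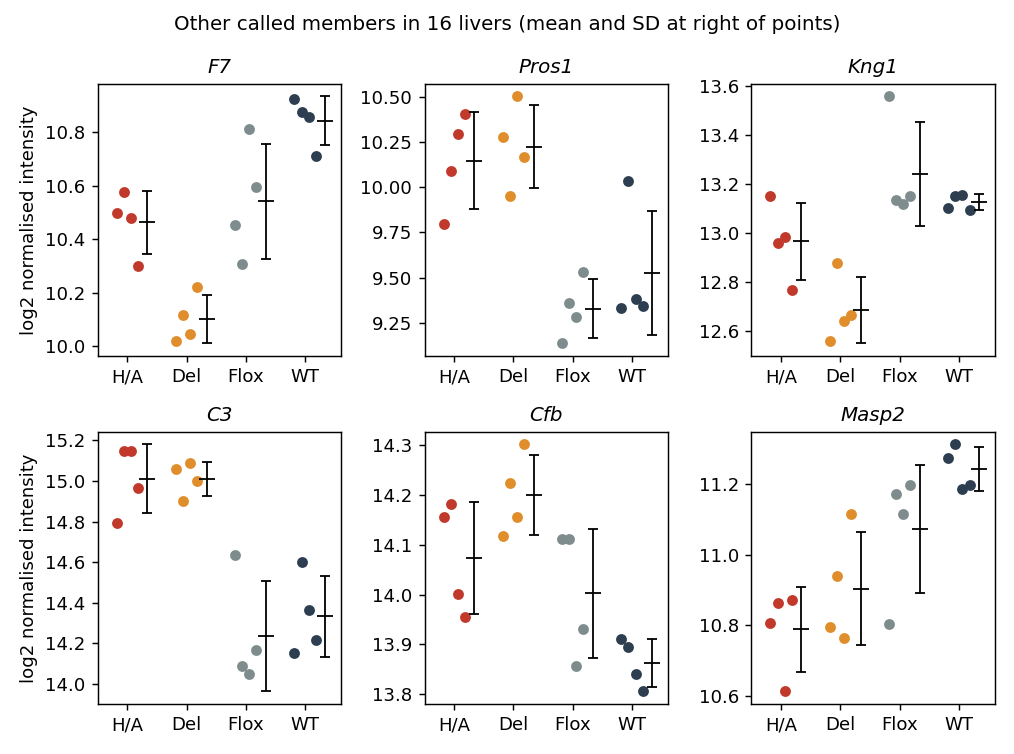
Log2 normalised intensity of F7, Pros1, Kng1, C3, Cfb and Masp2 in each of 4 livers of H/A, Del, Flox and WT mice (points), with mean and SD at the right of each group. C3 lies higher in every H/A and Del liver than in any Flox or WT liver, and F7 is lowest in the Del livers.

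Among the terminal genes, C8g, the gamma chain of C8, was lower in both H/A and Del livers. It read 8.10, 8.02, 7.01 and 7.81 in H/A livers, 7.58, 7.97, 7.60 and 8.04 in Del livers, 8.64, 8.91, 8.67 and 8.80 in Flox livers, and 8.82, 9.06, 8.79 and 8.83 in WT livers. All H/A and Del arrays lay below all Flox and WT arrays. C8g fell by 1.14 in H/A [-1.57 to -0.71] (2.21-fold lower, limma adjusted p = 0.00288; -1.23 and -1.0 within slides), by 1.08 in Del [-1.50 to -0.65] (0.00266; -1.36 and -0.94), and by 0.96 in Del against Flox [-1.38 to -0.53] (0.00389; -1.19 and -0.86). Leaving out any 1 of the 16 arrays ended none of these calls. Without scaling between arrays, C8g was not called in H/A against WT (-0.61, 0.0962) or in Del against Flox (-0.80, 0.0555).

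C9, which forms the pore, had the widest differences from WT of the terminal genes and was not called. It read 10.02, 9.84, 8.99 and 10.37 in H/A livers, 10.38, 10.12, 10.32 and 10.18 in Del livers, 8.54, 11.91, 11.45 and 11.58 in Flox livers, and 11.90, 11.54, 11 and 11.40 in WT livers. H/A and Del arrays lay below all WT arrays and below all Flox arrays but replicate 1, the lowest of all. Differences from WT were -1.66 in H/A [-2.82 to -0.50] (limma adjusted p = 0.0624; -2.11 and -0.83 within slides) and -1.21 in Del [-2.37 to -0.05] (0.137; -1.34 and -0.99). Without Flox replicate 1, whose spread enters the shared error, the same differences passed (0.00128 and 0.00621), as they did with only the 2 compared genotypes in the fit (0.0181 and 0.00473), and Del against Flox, -0.62 with all arrays (0.366), was -1.40 (0.00387).

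That Flox array was also low for C6 and C8a, further members of the pore. C6 read 10.41, 10.61, 10.41 and 11.35 in H/A livers, 11.68, 10.04, 11.53 and 11.25 in Del livers, 7.58, 11.20, 10.94 and 11.31 in Flox livers, and 10.62, 10.73, 9.61 and 10.73 in WT livers. C8a was 9.11 on Flox replicate 1 and 10.11 to 11.09 on the other 15. Differences from WT were 0.27 and 0.70 for C6, and -0.15 and 0.03 for C8a, in H/A and Del. Hc, the mouse gene of C5, differed by 0.02 and 0.11, and none of the 3 genes was called.

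**Figure D5:**
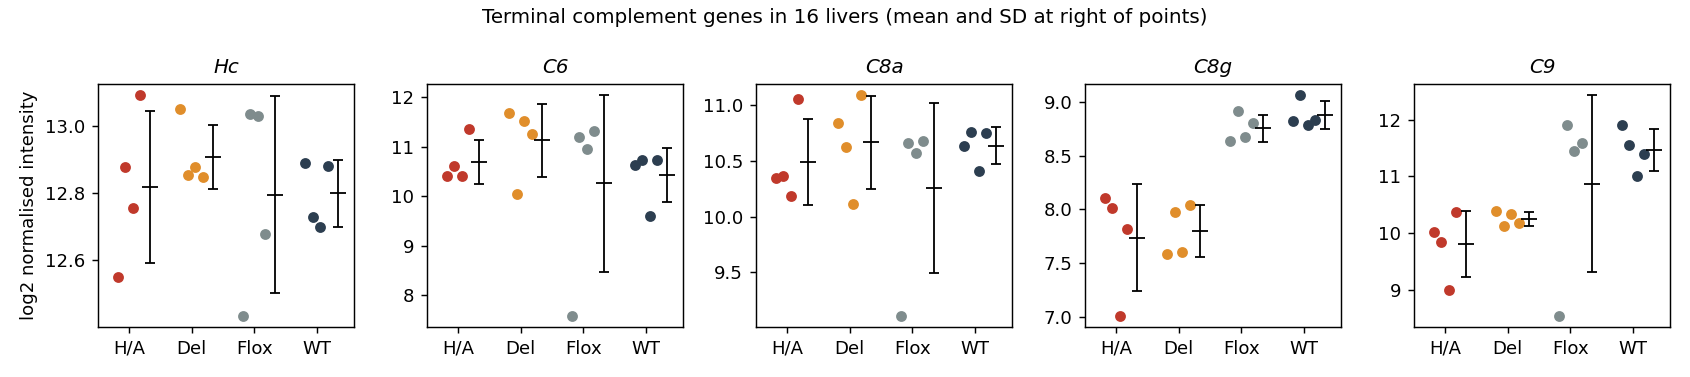
Log2 normalised intensity of 5 terminal complement genes in each of 4 livers of H/A, Del, Flox and WT mice (points), with mean and SD at the right of each group. C8g is lower in every H/A and Del liver than in any Flox or WT liver, and 1 Flox liver lies far below the others for C6, C8a and C9.

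Other genes of the 2 systems came from a list that holds no member. Of 28 tested coagulation and fibrinolysis genes, 1 rose in H/A against WT and 0 fell, 3 rose and 1 fell in Del against WT, and 9 rose and 3 fell in Del against Flox. These calls were 3.57%, 14.3% and 42.9% of the list, where 10.1%, 13.2% and 34.8% of all genes were called. Median differences over the list were 0.11, -0.03 and 0.22, and over all genes tested -0.09, -0.11 and -0.14. Anxa2, the annexin that gathers plasminogen on cell surfaces, averaged 11.19 ± 0.65 in H/A livers, 12.01 ± 0.66 in Del livers and 8.30 ± 0.29 in WT livers (SD, n = 4 each), and rose by 2.89 and 3.71 (limma adjusted p = 0.000169 and 1.27e-05). Del against WT also called Kng2 (-0.56), Gas6 (0.80) and the thrombin receptor F2r (0.74). Thbd, the thrombomodulin that turns thrombin towards protein C, averaged 5.45 ± 0.46 in Del livers, 3.03 ± 0.85 in Flox livers and 4.76 ± 0.36 in WT livers (SD, n = 4 each), and was well above background on only 1 of 4 Flox arrays. It rose by 2.42 in Del against Flox (limma adjusted p = 0.000989), while Del against WT (0.69, 0.236) and Flox against WT (-1.73, 0.674) were not called.

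Of 28 further complement genes, 4 rose in H/A against WT and 0 fell, 3 rose and 4 fell in Del against WT, and 4 rose and 4 fell in Del against Flox. These calls were 14.3%, 25% and 28.6% of the list, where 10.1%, 13.2% and 34.8% of all genes were called. Median differences over the list were -0.05, -0.17 and 0.04, and over all genes tested -0.09, -0.11 and -0.14. Clu, an inhibitor of pore assembly, rose by 1.25 in H/A, 1.14 in Del against WT and 1.48 in Del against Flox. Itgb2, a chain of the C3 fragment receptors of leukocytes, rose by 2.00, 1.88 and 2.04 (well above background on 3 of 4 Flox arrays), and the macrophage receptor Vsig4, which is also among the macrophage markers, by 1.21, 0.72 and 0.85. Fcna, a lectin pathway ficolin, rose by 0.75 in H/A against WT (limma adjusted p = 0.00115). In Flox against WT and in H/A against Del 0 genes of either list were called with limma, where 0.0222% and 0.0127% of all genes were called.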

How the data were processed

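Liver total RNA was primed with random and oligo-dT primers, labelled with Cy3 and hybridised to 16 subarrays on 2 slides, per the labels. The deposited scanner files hold background-corrected spot intensity values that were not scaled between arrays, per the file headers, and Partek and Agilent Feature Extraction 11 stand in the submitters' processing notes. Log2 intensity values make up the deposited value table, with equal medians on all 16 arrays and read as quantile normalised by the authors, and it was used for every value here. It had 0 columns without a sample.

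Columns and scanner files were paired by correlation, which for 6 of 16 samples chose the file at the labelled slide and not the listed one. Of 60037 probes, 36264 were named through RefSeq transcript identifiers (GRCm38.p6). A probe was kept if it was well above background on 4 or more of 16 arrays, which left 37819, and the probe with the highest mean stood for a gene. A probe without a symbol stood as a gene of its own, so the shares over all genes include such probes. All 31484 genes, 17666 of them with a symbol, were fitted in 1 model of 4 genotype means with limma 3.58.1 in R 4.3.3. Benjamini-Hochberg adjustment was applied, and the procedure was tested on simulated data. Members and lists were chosen with earlier results of these data known. All members could be named. Values by array were planned for members called in any comparison and for C1qa, C1qb, C1qc and Cfp, and those of Fgb, C6 and C9 were added after they were seen. Other pathway genes were named only where called, at most the 4 with the smallest p per list and comparison. The alternatives were scanner signals scaled by the 75th percentile, normexp with an offset of 50, no scaling, no filter, 2 groups alone, trend and robust fitting, slide as a block or within slides, the mean of a gene's probes, and each array left out.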

Additional observations from a re-analysis of the deposited data

Results flagged for a closer look

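Of 136 gene and genotype pairs, 17 had 1 array far from the other 3 of its group, and chance gives about 1 in 20. Flox replicate 1 was such an array for C6 (7.58, with the others at 10.94 to 11.31), C8a (9.11, against 10.57 to 10.67), C9 (8.54, against 11.45 to 11.91), Fgg (12.32, against 12.61 to 12.65), Kng1 (13.56, against 13.12 to 13.15) and C1qb (9.76, against 8.96 to 9.07). WT replicate 2 was high for Fgb (15.03, against 13.86 to 14.04), Pros1 (10.04, against 9.33 to 9.38) and C8g (9.06, against 8.79 to 8.83). H/A replicate 3 was low for F11 (8.90, against 9.87 to 10.01) and Proc (13.08, against 13.31 to 13.35) and high for C1qc (8.04, against 7.77 to 7.80). Del replicate 1 was low for Plg (12.59, against 12.98 to 13.05) and high for Hc (13.05, against 12.85 to 12.88), and Del replicate 3 was high for C1qb (10.67, against 10.31 to 10.34). WT replicate 1 was low for F12 (11.71, against 12.04 to 12.11) and WT replicate 3 for C6 (9.61, against 10.62 to 10.73).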

How the results depend on the processing

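The 28 called differences kept their direction under the 29 alternatives, except Masp2 in H/A against WT, which turned to 0.12 without scaling. Of the 28 calls, 11 held without scaling, 19 with scanner signals scaled by the 75th percentile, 18 with the 2 groups alone and 28 with normexp. The unscaled setting moved the median of all genes in H/A against WT to 0.37, against -0.09, and the share of calls that were higher to 98.7%. Members called in H/A against WT, 8 as reported (10.1% of all genes), numbered 4 with scanner signals scaled by the 75th percentile (10.1%), 13 with normexp (13.7%), 12 without scaling (30.3%), 4 with the 2 groups alone (5.80%), 0 within the first slide (0.0445%) and 1 within the second (1.99%). Del against WT (10 as reported, 13.2%) and Del against Flox (10, 34.8%) called 3 and 4 without scaling (7.12% and 13.9%), and 0 each within the first slide (0.448% and 0.508%). With the scanner files as listed, all 3 comparisons called 0 members (0.0159%, 0% and 0% of all genes). Without the 6 arrays whose listed file was from another slide, an alternative chosen after seeing the data, they called 1, 2 and 0 (1.92%, 4% and 0.778%). Without WT replicate 2 and Flox replicate 1 together, also chosen after seeing the data, they called 12, 12 and 13 (24.1%, 21.4% and 26.8%). Leaving out single arrays gave 3 to 11 in H/A against WT, with the share of all genes called in brackets. There were 11 without WT replicate 2 (25.5%) and 3 without H/A replicate 3 (4.90%). Counts were 4 without H/A replicate 2 (5.06%) or WT replicate 4 (4.61%), and 5 without WT replicates 1 (6.31%) or 3 (5.14%). Del against WT gave 5 without Del replicate 3 (6.95%), 6 without WT replicates 1 (8.79%) or 3 (8.17%), and up to 12, without Flox replicate 1 (13%). Del against Flox gave 8 without Del replicates 3 (16.2%) or 4 (26.5%) or Flox replicates 2 (32%) or 3 (23.4%), and up to 13, without Del replicate 1 (32.7%). Flox against WT and H/A against Del gave 0 to 0. Fewer arrays enter the within-slide and left-out fits; elsewhere the cause was not tested. No paired analysis was possible because the labels carry no replicate numbers, and those used here follow the order of the samples.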
